A study of Danio rerio with 15 samples.

Results

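Leukocyte transcripts were followed in zebrafish melanoma and skin through 4 genes that are used as markers of myeloid cells, namely marco and c1qc for macrophages, lyz for lysozyme-producing phagocytes and cpa5 for mast cells. The members were the probe sets whose single gene symbol in the platform annotation was 1 of these 4 names, and each gene had 1 probe set among the 15617 on the array. They were thus 4 of the 8793 genes measured by such probe sets.

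RNA was measured on 15 Affymetrix zebrafish arrays. The 6 melanomas and the 6 mutant skin samples came from fish of the genotype mitf-BRAFV600E;p53-/-, in which a mitf promoter drives BRAF with the V600E change in the pigment cell lineage, and the mutant skin was taken right beside a tumour. The 3 wild-type skin samples were taken from the flank of fish of the strain Tu. All fish were 4 to 8 months old. Melanoma and mutant skin thus share both alleles, wild-type skin carries neither, and the strain background of the mutant line is not given in the sources used here. The labels do not say whether the samples of a group came from different fish, so the p-values measure the spread between samples.

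Marco is a scavenger receptor with a collagen-like domain through which macrophages bind bacteria and debris. The gene c1qc encodes a chain of C1q, the recognition molecule of the classical complement pathway, which tissue macrophages make. Lysozyme, the product of lyz, is an enzyme that cuts bacterial cell wall, and in zebrafish larvae lyz is used as a marker of neutrophils that some macrophages also express. The gene cpa5 encodes a carboxypeptidase A, a protease of the kind stored in mast cell granules, and is used in zebrafish as a mast cell marker, while related carboxypeptidases are digestive enzymes of the exocrine pancreas. Values below are log2 expression relative to a reference that is not stated, so a value of 0 has no meaning of its own, levels are compared between samples for 1 gene at a time, and all changes are on the log2 scale.

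The pieces of tissue differed in what else they held. The level of a gene list in an array is the mean over its measured genes, each taken relative to its mean over the 15 arrays. Transcripts of oocytes were high, with a mean list level over 3 log2 units above the lowest array, in 7 of the 15 arrays, namely wild-type skin 1 and 2, melanoma 6 and mutant skin 1, 2, 4 and 6. Transcripts of the exocrine pancreas were high by the same rule in mutant skin 1 and 4, where the mean level of that list was 2.31 and 4.01 against at most 0.76 in every other array. The array at 0.76 was mutant skin 5, which was not counted as high. Its values of the pancreas genes ctrb.1 and prss1, 4.21 and 3.29, still lay above every melanoma and wild-type sample. Melanoma 6 stood apart from the other melanomas: over all genes, with each gene taken relative to its mean over the arrays, it correlated with mutant skin 6 at r = 0.864 and with melanomas 1 to 5 at -0.43 to -0.33. Pigment cell transcripts were weakest there among the melanomas. The level of the melanocyte list was 0.16 in melanoma 6, against 2.33 to 2.95 in melanomas 1 to 5 and at most -0.39 in mutant skin. The gene mitfa, the pigment cell regulator, was between -0.40 and 3.36 in the melanomas and between -5.24 and -1.49 in mutant skin. The genotypes were not checked from the arrays. The results for the 4 genes are given with and without these arrays, and those for the list genes are counted without them after the lists.

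The macrophage genes were higher in melanoma than in wild-type skin, and the difference passed the test for marco but not for c1qc. In wild-type skin marco was -4.05, -2.93 and -2.03 in samples 1 to 3. In mutant skin it was -0.47, -2.74, -1.03, 0.08, 0.29 and -2.86 in samples 1 to 6. In melanoma it was 1.14, 0.03, 1.07, 0.75, -0.35 and -2.68. Melanomas 1 to 5 lay above every wild-type sample, while melanoma 6, with mutant skin 2 and 6, lay within the wild-type range, so the groups overlapped. The means were -0.01 ± 1.44 (SD, n = 6) in melanoma, -1.12 ± 1.38 (n = 6) in mutant skin and -3.00 ± 1.01 (n = 3) in wild-type skin.

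Between melanoma and wild-type skin, marco rose by 2.99 ± 0.88 (SE), a 7.95-fold difference with a 95% interval of 1.11 to 4.87 (limma, Benjamini-Hochberg adjusted p = 0.0315). At this threshold, an adjusted p under 0.05, 16.8% of the 8793 genes passed in that comparison, 9.34% upward and 7.48% downward. Neighbouring groups in the order of marco levels did not pass the threshold. Melanoma minus mutant skin was 1.11 ± 0.72 (interval -0.42 to 2.65, limma adjusted p = 0.343). Mutant minus wild-type skin was 1.88 ± 0.88 (interval -0.003 to 3.76, limma unadjusted p = 0.0503, adjusted p = 0.685). By size of rise in mutant over wild-type skin, marco ranked 61 of the 8793 genes, in a comparison in which 0.136% of them passed. The call between melanoma and wild-type skin was lost when melanoma 1, 2, 3 or 4 or any 1 of the 3 wild-type samples was left out (adjusted p between 0.0523 and 0.121), and without melanoma 6 the change was 3.53 (adjusted p = 0.00375).

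The same arrays were high and low for c1qc. In wild-type skin c1qc was -3.90, -2.13 and -1.83. In mutant skin it was 0.54, -2.53, 0.27, 0.92, 1.00 and -2.0, and in melanoma 1.37, 0.01, 1.34, -0.26, -0.13 and -2.64. Mutant skin 2 and 6 and melanoma 6 again lay among the wild-type samples, and the other 9 arrays from mutant fish lay above them all. The means were -0.05 ± 1.47 (SD, n = 6) in melanoma, -0.30 ± 1.55 (n = 6) in mutant skin and -2.62 ± 1.12 (n = 3) in wild-type skin.

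No comparison passed the threshold for c1qc. Melanoma minus wild-type skin was 2.57 ± 0.94 (interval 0.55 to 4.58, limma adjusted p = 0.0787), and without melanoma 6 it was 3.09 ± 0.84 and passed (adjusted p = 0.017). Mutant minus wild-type skin was 2.32 ± 0.94 (interval 0.30 to 4.33, adjusted p = 0.585). Melanoma minus mutant skin was 0.25 ± 0.77 (interval -1.40 to 1.90, adjusted p = 0.876), and its sign turned when the arrays with oocyte transcripts were left out (-0.16). In bulk tissue, fewer cells of a type and less RNA per cell cannot be told apart, here and for every gene below.

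**Figure D1:**
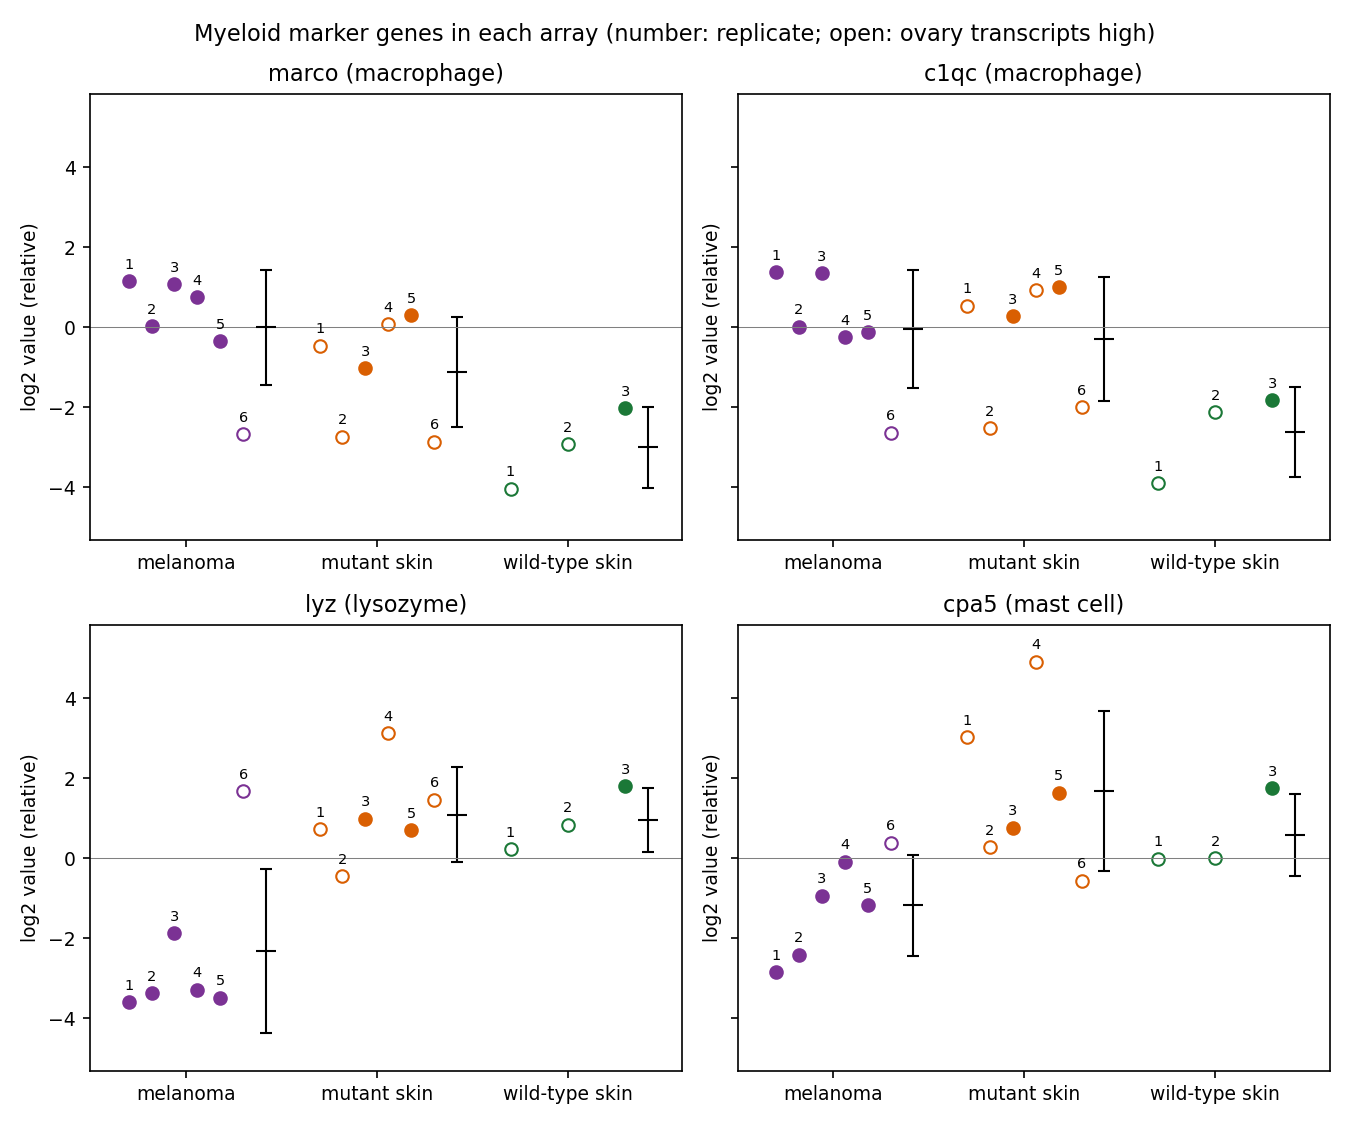
Log2 expression (vertical axis, relative to an unstated reference) of marco, c1qc, lyz and cpa5 in each of the 15 arrays, by group, with points numbered by sample, open points for the 7 arrays high for oocyte transcripts, and bars for the group mean and SD. Melanoma 6 sits apart from melanomas 1 to 5 for marco, c1qc and lyz, and mutant skin 1 and 4 hold the highest cpa5 values.

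The arrays with the lowest marco and c1qc were among those with high oocyte transcripts. The mean level of the oocyte list was 4.45 in melanoma 6, 4.50 and 5.10 in mutant skin 2 and 6, and between -3.57 and -3.25 in melanomas 1 to 5. Over the 15 arrays r with the oocyte list was -0.799 for marco and -0.72 for c1qc. In the 6 melanomas it was -0.921 and -0.876, and in mutant skin -0.701 and -0.75. Single arrays departed from this relation. Mutant skin 1 and 4, at 2.68 and 0.88 for the oocyte list, had marco at -0.47 and 0.08 and c1qc at 0.54 and 0.92, above every wild-type sample. Wild-type skin 3, at -2.04 for the list, had marco at -2.03 and c1qc at -1.83. These lay below melanomas 1 to 5 but were the highest of the 3 wild-type samples, whose other 2 were high for the list. Without the 7 arrays high for this list, which leaves 5 melanomas, 2 mutant skin samples and 1 wild-type sample, melanoma minus wild-type skin was 2.55 for marco (limma adjusted p = 0.0291) and 2.3 for c1qc (adjusted p = 0.0504). With the oocyte level as a covariate it was 1.76 for marco (adjusted p = 0.0298) and 1.26 for c1qc (adjusted p = 0.131), and melanoma minus mutant skin became -0.09 and -1.02, neither past the threshold. Mutant skin 2 and 6 were also the lowest mutant skin samples for a skeletal muscle list (-0.11 and 0.31) and a keratinocyte list (-1.66 and -0.25). Within mutant skin r with these 2 lists was 0.929 and 0.895 for marco and 0.978 and 0.963 for c1qc. Over the 15 arrays it was -0.53 and -0.16 for marco and -0.35 and 0.04 for c1qc. The part of the other tissue in the macrophage values was not tested beyond the oocyte fits above.

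Between melanoma and wild-type skin 9.34% of all genes rose and 7.48% fell. Among the 17 measured genes of the macrophage list, which includes both members, 4 rose and 1 fell. The list's median change was 0.82 against -0.02 over all genes. Beside marco, the genes that rose were slc7a7, an amino acid transporter needed by zebrafish microglia, by 2.77 ± 0.60 (adjusted p = 0.00674), csf1ra, the receptor for the macrophage growth factor CSF1, by 2.71 ± 0.71 (adjusted p = 0.0186), and lgmn, a lysosomal protease, by 1.55 ± 0.39 (adjusted p = 0.0163). The gene arg2, an arginase used in zebrafish as a marker of 1 activation state of macrophages, fell by 3.96 ± 0.82 (adjusted p = 0.00541). Without melanoma 6, 7 genes of the list rose and 1 fell. In that fit the oocyte list also went from 0 to 9 genes lowered of 23. Melanoma 6 was the only melanoma high for oocyte transcripts, so that gain follows from its removal and says nothing of macrophage genes. Whether the larger count was particular to macrophage genes was not tested. In zebrafish csf1ra is also a gene of yellow pigment cells, and lgmn and arg2 are not restricted to macrophages.

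Between melanoma and mutant skin, where 13.0% of all genes passed the test, 7.41% upward, 1 of the 17 macrophage genes rose and 1 fell, with a list median of 0.25 against 0.02 over all genes. These were again lgmn, by 1.34 ± 0.32 (adjusted p = 0.0150), and arg2, which fell by 3.00 ± 0.67 (adjusted p = 0.0106). All 6 melanomas had less arg2 (-2.81 to -0.34) than any of the mutant skin samples (-0.06 to 2.55), a separation in this direction that 1.17% of all genes had. The values of csf1ra in melanoma were 1.52, 0.44, 2.01, 0.03, 0.46 and -2.35, against -2.48 to -0.94 in mutant skin. Melanomas 1 to 5 lay above all mutant skin samples, melanoma 6 did not, and the difference of 1.79 ± 0.58 did not pass (adjusted p = 0.0552). Without melanoma 6 it was 2.33 ± 0.40 and passed (adjusted p = 0.00105).

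The pan-leukocyte list held genes of several blood lineages and of their progenitors. In the limma test 0 of its 18 measured genes passed between melanoma and mutant skin, and 1 had an unadjusted p under 0.05. The change was -0.02 for ptprc, the phosphatase CD45 (adjusted p = 0.992), -0.04 for lcp1, the leukocyte actin-bundling protein L-plastin (0.982), 0.54 for spi1b, the myeloid transcription factor PU.1 (0.539), and -0.64 for coro1a, a leukocyte coronin (0.517). Against wild-type skin, 1 gene of the 18 rose in melanoma, namely lcp2a, an adaptor of immune receptor signalling, by 3.22 ± 0.89 (adjusted p = 0.0240). Of the other scavenger receptor genes, none passed in either comparison of melanoma: 0 of 6 passed against mutant skin, 0 of these at an unadjusted p under 0.05, and marco was the 1 of 6 against wild-type skin.

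Of the 13 measured complement genes other than c1qc, 1 passed in the comparisons of melanoma with skin. This was cfd, the protease factor D of the alternative pathway, which fell in melanoma by 2.98 ± 0.77 against mutant skin (adjusted p = 0.0206) and by 3.22 against wild-type skin (adjusted p = 0.0309). The C1q chain genes c1qa and c1qb, and the macrophage genes mpeg1.1 and mfap4, had no probe set with that single symbol and were not analysed here.

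Lysozyme RNA was lower in melanoma than in both kinds of skin. In melanoma lyz was -3.60, -3.37, -1.88, -3.29 and -3.48 in samples 1 to 5 and 1.67 in sample 6. In mutant skin it was 0.72, -0.46, 0.99, 3.12, 0.70 and 1.46, and in wild-type skin 0.22, 0.83 and 1.80. Melanomas 1 to 5 lay below every skin sample, and melanoma 6 lay above 12 of the other 14 arrays, so the groups overlapped through that 1 array. The means were -2.33 ± 2.06 (SD, n = 6) in melanoma, 1.09 ± 1.18 (n = 6) in mutant skin and 0.95 ± 0.79 (n = 3) in wild-type skin, and melanomas 1 to 5 averaged -3.13 ± 0.71.

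Against mutant skin, lyz fell by 3.42 ± 0.83 in melanoma (10.7-fold, interval -5.19 to -1.65, limma adjusted p = 0.0158), in a comparison in which 5.63% of all genes fell. Without melanoma 6 the change was -4.21 ± 0.54 (adjusted p = 0.000123), and the call held in each of the 15 fits that left out 1 array. Against wild-type skin it fell by 3.28 ± 1.02 (9.69-fold, interval -5.44 to -1.11, adjusted p = 0.0391). The 2 skins were the neighbours in level that did not differ beyond their spread: mutant minus wild-type skin was 0.14 ± 1.02 (interval -2.03 to 2.31, adjusted p = 0.998), and the sign of that difference turned when mutant skin 4 or wild-type skin 1 was left out.

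The lyz call against wild-type skin depended on single arrays. It was lost without mutant skin 1, without any 1 of melanomas 1 to 5 or without any 1 wild-type sample (adjusted p between 0.0507 and 0.164), and without melanoma 6 the change was -4.08 (adjusted p = 0.000643). Without mutant skin 1 and 4, the arrays with pancreas transcripts, lyz changed by -3.00 between melanoma and mutant skin (adjusted p = 0.0891), and without melanoma 6 as well by -3.80 (adjusted p = 0.00055).

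Most other neutrophil genes did not pass in either comparison of melanoma. Of 14 measured neutrophil genes, 0 rose and 2 fell between melanoma and mutant skin, with a list median of -0.13. Beside lyz the gene that fell was cebpd, a transcription factor of myeloid and many other cells, by 1.94 ± 0.43 (adjusted p = 0.0110). The change was -0.24 ± 0.35 (adjusted p = 0.725) for mpx, the myeloperoxidase of neutrophil granules, and -0.11 ± 0.64 (adjusted p = 0.934) for mmp9, the gelatinase of neutrophil granules. In melanoma mpx was -0.77, -0.78, -0.79, 0.30, -0.33 and -0.09, within the range of -1.26 to 0.83 in mutant skin. Against wild-type skin lyz was the only 1 of the 14 to pass, and 4 had an unadjusted p under 0.05.

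The antimicrobial list had 5 measured members, and lyz and leap2 fell in both comparisons of melanoma. The gene leap2 encodes a small secreted peptide first described as an antimicrobial peptide of liver. It fell by 3.58 ± 0.83 against mutant skin (adjusted p = 0.0129) and by 3.43 against wild-type skin (adjusted p = 0.0317). In melanoma leap2 ran from -1.17 to -0.09, and in mutant skin it was 4.27, -1.32, 2.6, 3.76, 5.12 and 1.97. Mutant skin 2 was the 1 skin sample of either kind that was as low as the melanomas.

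Tissue markers moved with lyz, and also with cpa5, as given below. The mean level of the skeletal muscle list was between -4.59 and 0.50 in melanoma, where melanoma 6 was the highest, between -0.11 and 2.96 in mutant skin and between 2.13 and 3.29 in wild-type skin, and 30 of its 33 measured genes fell between melanoma and mutant skin. The keratinocyte list, whose genes are expressed in epidermis, ran from -2.71 to -0.60 in melanoma and from -1.66 to 1.96 in mutant skin. In wild-type skin it ran from 0.40 to 1.68. Between melanoma and mutant skin 16 of its 33 genes fell, where 5.63% of all genes did. The liver and yolk list, of which 17 genes were measured, was highest in melanoma 6, at 4.80, and in mutant skin 4 and 6, at 4.11 and 3.09, and these arrays held 3 of the 4 highest lyz values. In the other arrays it ran from -1.92 to 0.82.

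Over the 15 arrays, which span 3 tissues, lyz followed the muscle list at r = 0.907, the liver and yolk list at 0.737, the melanocyte list at -0.89 and mpx at 0.461. Within groups the values were different. In mutant skin r was 0.853 for the liver and yolk list, 0.522 for muscle, 0.540 for the neutrophil list without lyz and 0.744 for mpx. In the 6 melanomas it was 0.964 for liver and yolk, 0.921 for muscle and -0.39 for the neutrophil list without lyz. In melanomas 1 to 5, only 5 arrays, it was 0.838 for liver and yolk, 0.196 for muscle, 0.799 for the neutrophil list without lyz and -0.27 for mpx. The part of tissue composition in the lyz result was not tested.

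The mast cell gene cpa5 was lower in melanoma than in mutant skin. In mutant skin cpa5 was 3.01, 0.27, 0.76, 4.91, 1.64 and -0.57 in samples 1 to 6. In melanoma it was -2.86, -2.42, -0.94, -0.09, -1.17 and 0.39, and in wild-type skin -0.02, -0.01 and 1.75. Mutant skin 1 and 4 lay above all other arrays, and melanomas 4 and 6 lay among the lower mutant skin samples, so the groups overlapped. The means were 1.67 ± 2.0 (SD, n = 6) in mutant skin, 0.57 ± 1.02 (n = 3) in wild-type skin and -1.18 ± 1.27 (n = 6) in melanoma.

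Between melanoma and mutant skin, cpa5 fell by 2.85 ± 0.84 (7.22-fold, interval -4.65 to -1.06, limma adjusted p = 0.0369). The neighbours in level did not differ beyond their spread: melanoma minus wild-type skin was -1.76 ± 1.03 (interval -3.95 to 0.44, adjusted p = 0.277) and mutant minus wild-type skin 1.1 ± 1.03 (interval -1.1 to 3.29, adjusted p = 0.998). The call did not survive the removal of any 1 of mutant skin 1, 4 and 5 and melanomas 1, 2, 3 and 5 (adjusted p between 0.061 and 0.0912), and without mutant skin 1 and 4 together the change was -1.71 ± 0.67 (adjusted p = 0.176). Without the arrays high for oocyte transcripts, which include mutant skin 1 and 4, it was -2.70 (adjusted p = 0.0269), with 2 mutant skin samples left.

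The arrays with the highest cpa5 were those with pancreas transcripts. In mutant skin prss1, the trypsinogen gene of the exocrine pancreas, was 5.18, 1.06, 1.34, 7.36, 3.29 and 0.60, in the same order as cpa5 at its top 3 samples, and prss1 was between -1.04 and 0.32 in melanoma and wild-type skin. The likeness of cpa5 and prss1 was r = 0.990 over the 6 mutant skin samples and 0.479 over the 6 melanomas. Against the level of the whole pancreas list, of which 17 genes were measured, cpa5 gave r = 0.978 in mutant skin and 0.197 in melanoma. Between melanoma and mutant skin, where 5.63% of all genes fell, 3 of the 17 fell, namely ctrb.1, prss1 and amy2a. These encode a chymotrypsinogen, a trypsinogen and an amylase, and fell by 3.89, 3.70 and 3.59. Over the 15 arrays cpa5 gave r = 0.861 with the pancreas list, 0.774 with the keratinocyte list and 0.762 with the skeletal muscle list. In melanomas 1 to 5 the values were -0.155, 0.817 and 0.668. Whether cpa5 RNA in these arrays came from mast cells or from pancreas was not tested, nor was the part of tissue composition in the cpa5 result.

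**Figure D2:**
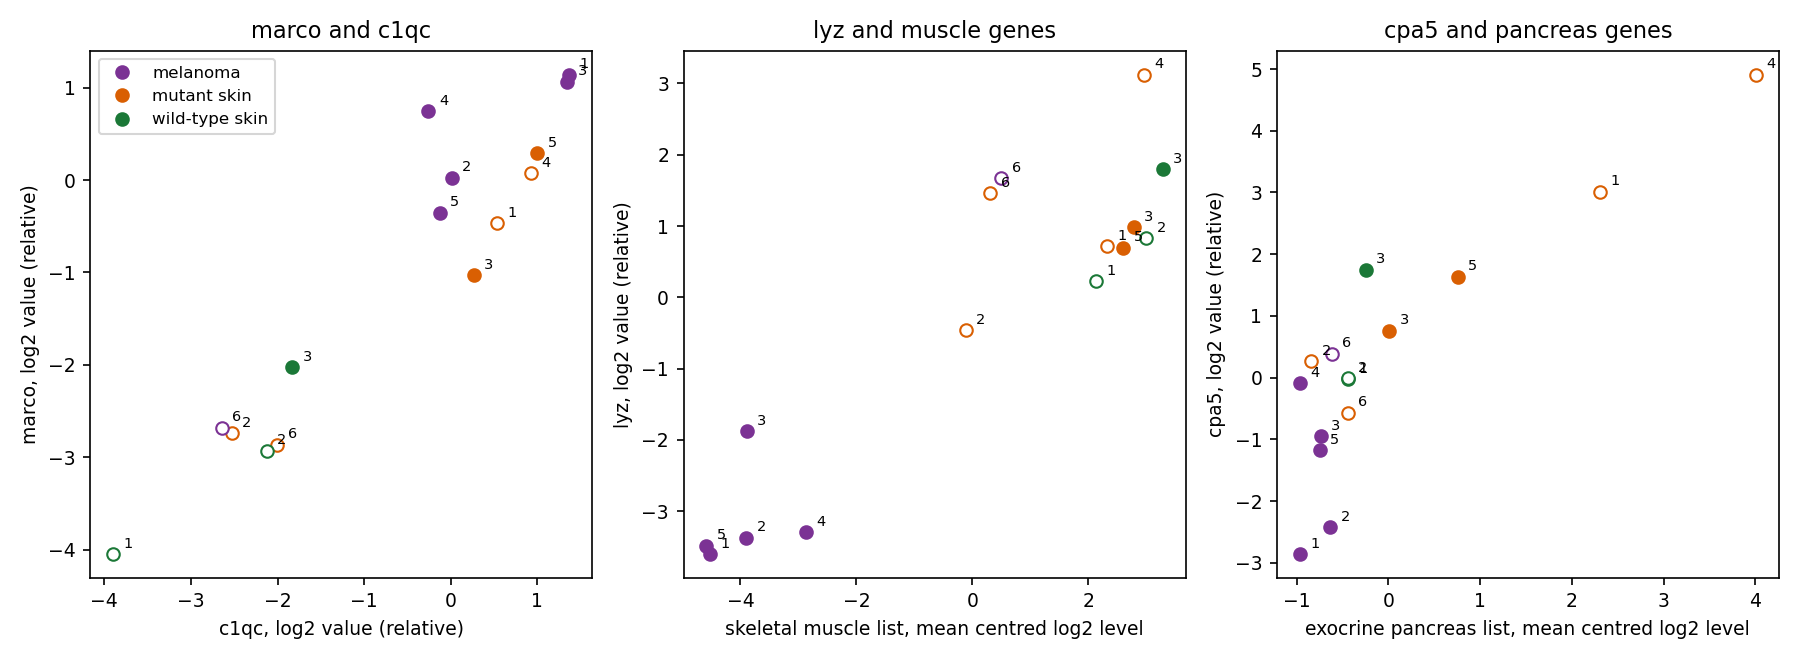
Log2 values of marco against c1qc, of lyz against the mean level of the skeletal muscle list, and of cpa5 against that of the exocrine pancreas list in the 15 arrays, coloured by group, numbered by sample and open where oocyte transcripts were high. For lyz, melanomas 1 to 5 sit at the lower left and melanoma 6 beside mutant skin 6, and for cpa5, mutant skin 1 and 4 lie at the upper right, away from all other arrays.

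None of the other mast cell genes fell in melanoma. Of the 4 measured, kita and gata2a rose in melanoma. The gene kita, the receptor tyrosine kinase KIT, rose by 2.65 ± 0.72 against mutant skin (adjusted p = 0.0268) and by 3.00 against wild-type skin (adjusted p = 0.0318), and is a melanocyte gene as well. The gene gata2a, a transcription factor of blood progenitors, mast cells and endothelium, rose by 2.56 ± 0.72 (adjusted p = 0.0313) and 2.95 (adjusted p = 0.0344). In melanoma gata2a was 1.01, 0.46, 2.97, 2.49, 4.14 and 1.40, against -2.33 to 1.24 in mutant skin. The fourth gene, srgn, the granule proteoglycan serglycin, changed by 0.05 against mutant skin without passing, and the median over the 4 was 1.30.

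**Figure D3:**
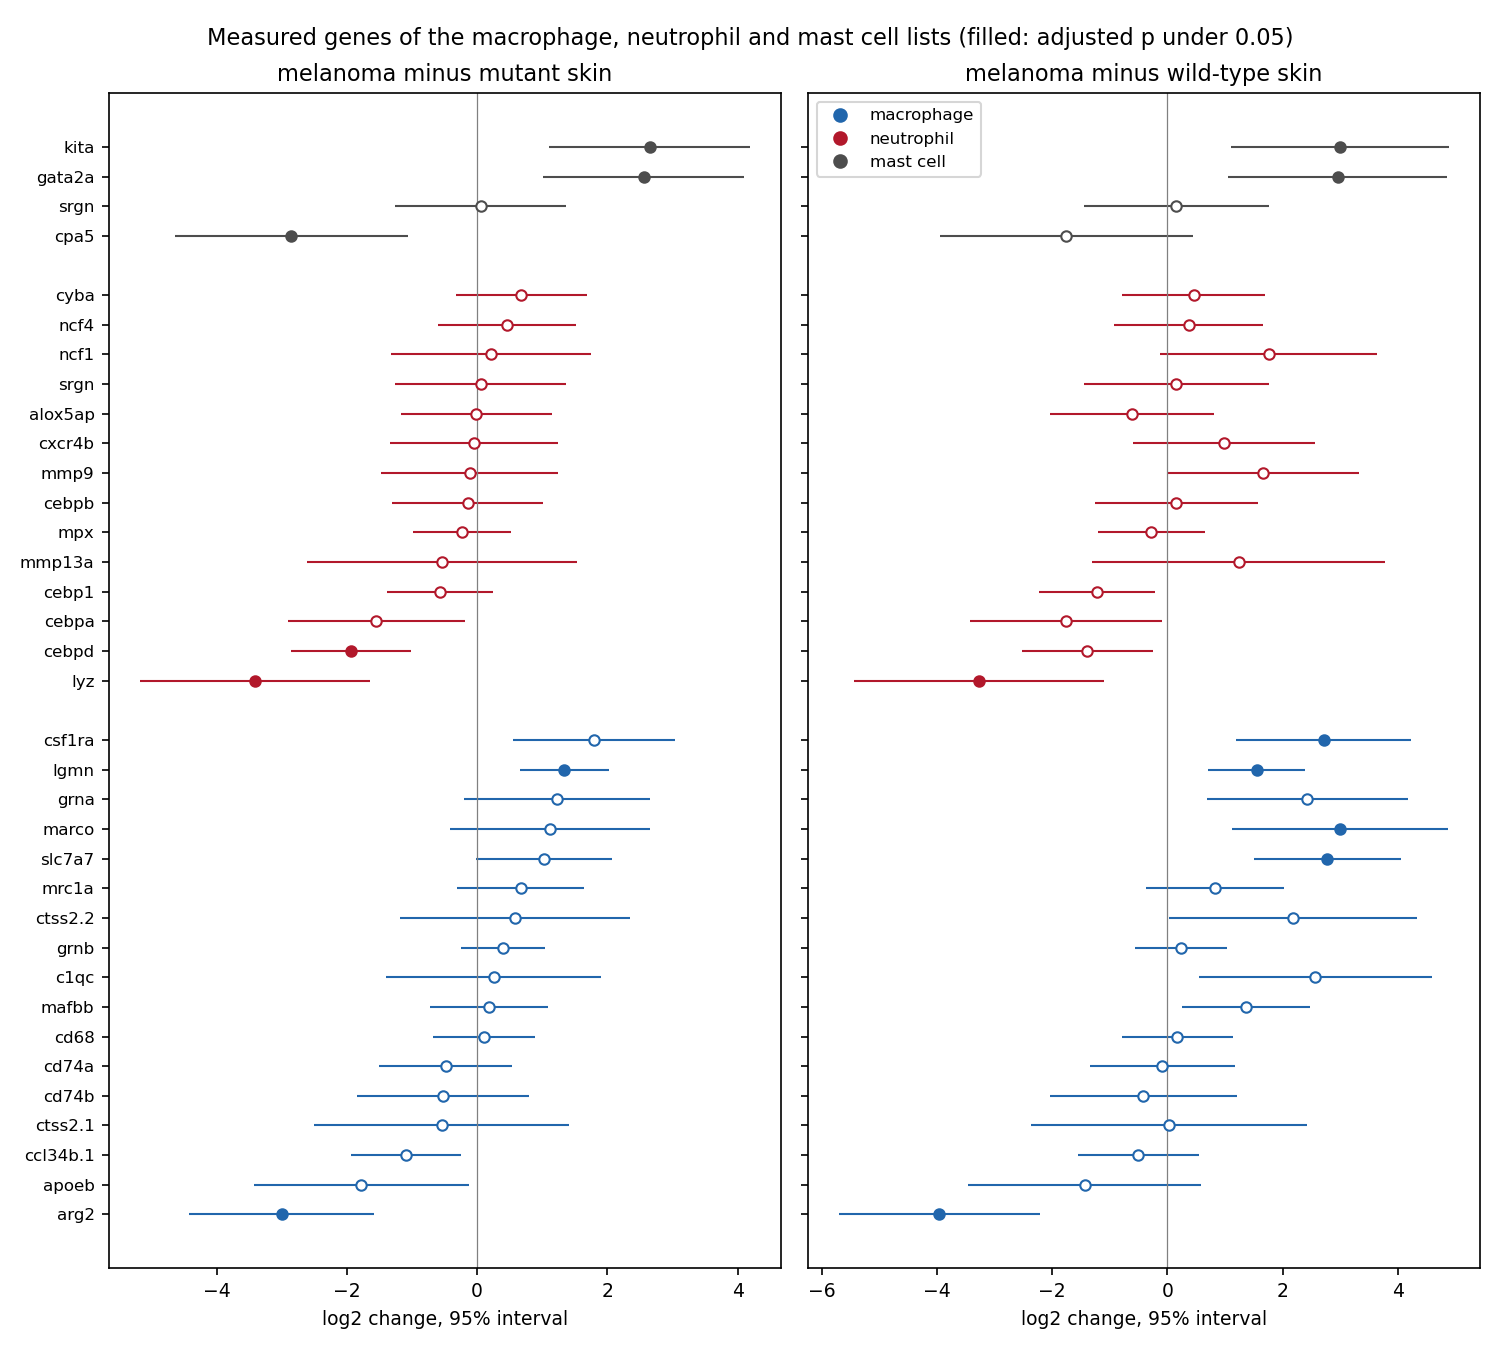
Log2 change with its 95% interval (horizontal axis) of every measured gene of the macrophage, neutrophil and mast cell lists, in melanoma minus mutant skin (left) and melanoma minus wild-type skin (right), filled where the adjusted p is under 0.05. On the left lyz is the lowest of 14 neutrophil genes and cpa5 the lowest of 4 mast cell genes, while marco and c1qc lie among the macrophage genes with intervals that include 0.

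The calls of the named list genes depended on the arrays that stand apart to different degrees. Over all genes 13.0% passed between melanoma and mutant skin. Most of the named genes were chosen because they had passed in a comparison, so the number passing with all arrays carries no support. Between melanoma and mutant skin 10 of 13 such genes passed, namely lgmn, arg2, cfd, cebpd, leap2, kita, gata2a, prss1, ctrb.1 and amy2a, while csf1ra, slc7a7 and lcp2a did not. All 10 still passed without melanoma 6, and lcp2a passed as well, at 1.72 (adjusted p = 0.0405), as 1 of 18 pan-leukocyte genes. In the fit without melanoma 6 the oocyte list also went from 0 to 17 genes lowered of 23. That gain follows from removing the only melanoma high for oocyte transcripts and says nothing of leukocyte genes. Whether added calls were particular to leukocyte genes was not tested. Without the arrays high for oocyte transcripts 8 of the 10 passed, the lost ones being lgmn (1.31, adjusted p = 0.0558) and gata2a (1.83, adjusted p = 0.2). In that fit 2 of the 18 pan-leukocyte genes fell. More genes over all 8793 were called as well, so these 2 calls were not particular to leukocyte genes. Without mutant skin 1 and 4, 2 of the 10 passed, prss1 and amy2a. In that fit the number called over all 8793 genes fell as well, from 1147 to 297, so the loss was not particular to the named genes. The changes that no longer passed in that fit were 1.44 for lgmn, -2.65 for arg2, -2.52 for cfd, -1.6 for cebpd, -2.93 for leap2, 2.71 for kita, 2.94 for gata2a and -1.88 for ctrb.1, with adjusted p between 0.0581 and 0.131.

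Against wild-type skin 9 of the 13, most of them chosen for having passed, did so, and all 9 also passed without melanoma 6. Without the oocyte arrays lgmn (1.46, adjusted p = 0.0933) and gata2a (1.98, adjusted p = 0.283) did not, and without mutant skin 1 and 4 kita did not (3.00, adjusted p = 0.052). The muscle count between melanoma and mutant skin was 30 of 33 without melanoma 6 and 24 without mutant skin 1 and 4. The keratinocyte count was 17 and 1 of 33 in the same fits, and the second fit called 297 genes in all against 1147 with all arrays.

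Mutant skin and wild-type skin, which address what the mutant fish's own skin holds beside a tumour, gave no call for any of the 4 genes. In that comparison 12 of the 8793 genes passed, 0.136%, and 0 of the members did in the limma test. The unadjusted p was 0.0272 for c1qc and 0.0503 for marco, both higher in mutant skin. None of the macrophage, neutrophil, mast cell or pan-leukocyte genes passed, while 3 of 17 macrophage, 1 of 14 neutrophil, 0 of 4 mast cell and 1 of 18 pan-leukocyte genes had an unadjusted p under 0.05. The 3 wild-type samples limit this comparison, whose intervals reach 3.76 for marco and 4.33 for c1qc. The comparisons share arrays, so a gene's changes in them are not independent.

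Because a call for lyz and none for marco does not show that they changed differently, the difference between pairs of members within each array was compared between groups. Between mutant skin and melanoma, marco minus lyz moved by 4.53 toward marco (exact permutation test, two-sided p = 0.0152, 0.0909 after Benjamini-Hochberg adjustment over 18 tests). The same shift was 3.97 for marco minus cpa5 (exact p = 0.0108, adjusted 0.0909), 3.67 for c1qc minus lyz (exact p = 0.0411, adjusted 0.107) and 3.1 for c1qc minus cpa5 (exact p = 0.0281, adjusted 0.107). It was 0.86 for marco minus c1qc (exact p = 0.00866, adjusted 0.0909) and -0.56 for lyz minus cpa5 (exact p = 0.53). None of the 18 differences passed after adjustment, and 0.00216 is the smallest p that 6 against 6 samples allow.

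The pairs of a macrophage gene with lyz or cpa5 depended on melanoma 6. For marco minus c1qc the shift was 0.86 with it and 0.88 without it, and the exact permutation p rose from 0.00866 to 0.0173. The adjusted p of that pair went from 0.0909 over 18 tests to 0.0416 over 12, so its pass came with the changed set of tests. Without melanoma 6, marco minus lyz ran from 2.95 to 4.74 in melanoma and from -4.33 to -0.41 in mutant skin, with no overlap. The shift was then 5.86, and the exact permutation p of 0.00433, 0.013 after adjustment over 12 tests, was the smallest that 5 against 6 samples allow. The same p was reached by marco minus cpa5, c1qc minus lyz and c1qc minus cpa5, while marco minus c1qc gave an exact p of 0.0173 (adjusted 0.0416) and lyz minus cpa5 an exact p of 0.208. Melanoma 6 stood apart in marco, c1qc and lyz, whose values enter these differences, so its removal favours a separation. The p-values without it describe melanomas 1 to 5 and do not replace the result with all arrays, in which no pair passed. Against wild-type skin, lyz minus cpa5 changed by -1.52 in melanoma with all arrays, without passing (exact permutation p = 0.167, adjusted 0.231). Without melanoma 6 it changed by -2.01, with an exact p of 0.0357 (adjusted 0.0429), the smallest that 5 against 3 samples allow. The same p without melanoma 6 was reached by marco minus lyz (7.60), marco minus cpa5 (5.60), c1qc minus lyz (7.16) and c1qc minus cpa5 (5.155). Marco minus c1qc did not pass (0.44, exact permutation p = 0.357). All pairs that passed against wild-type skin thus did so only when melanoma 6 was left out.

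**Figure D4:**
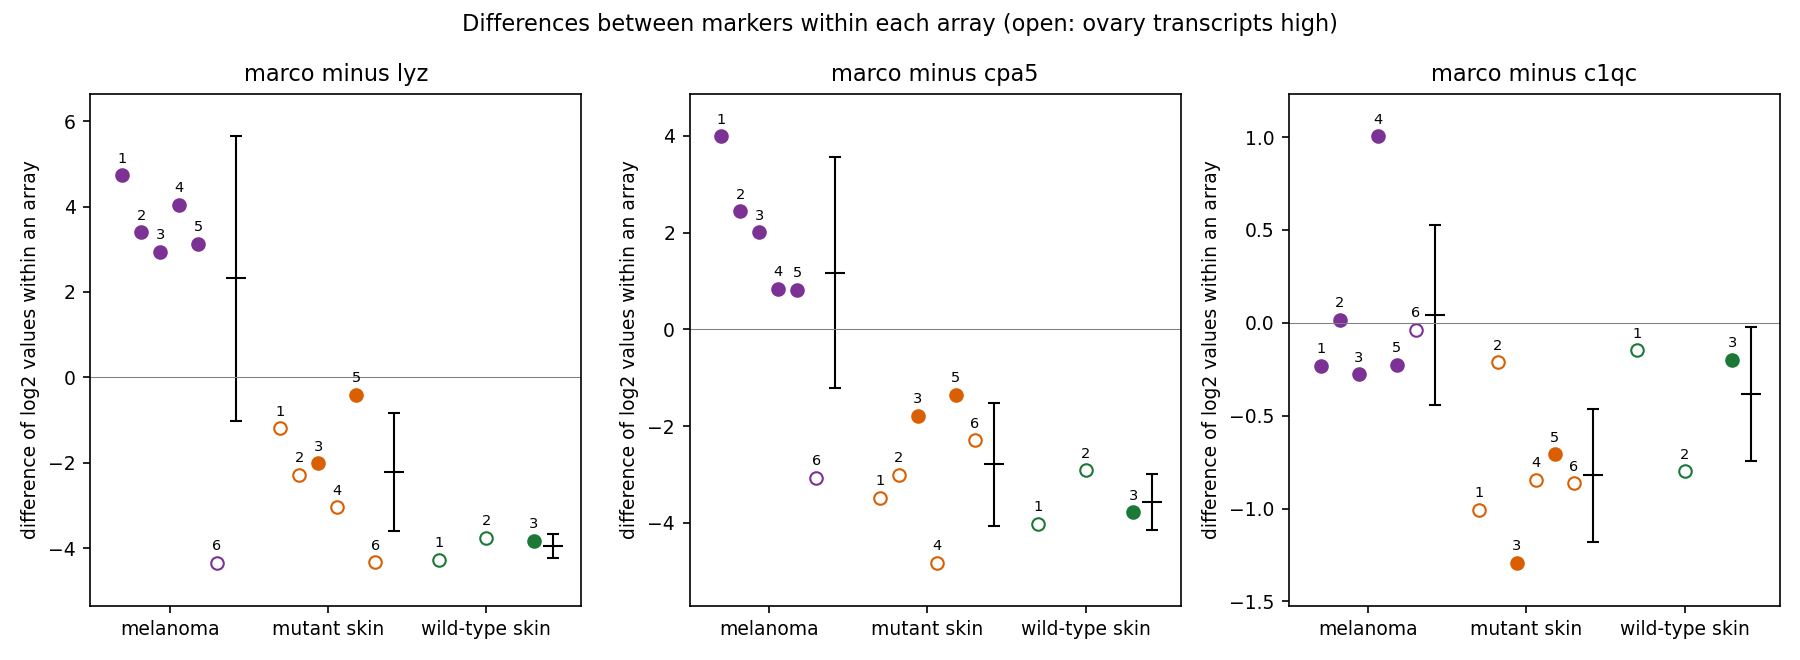
Within-array difference of log2 values (vertical axis) of marco minus lyz, marco minus cpa5 and marco minus c1qc in each of the 15 arrays, by group, numbered by sample, with open points for arrays high for oocyte transcripts and bars for the mean and SD. Melanomas 1 to 5 lie above all mutant skin samples for marco minus lyz and marco minus cpa5. For marco minus lyz melanoma 6 is the lowest array, just below the lowest mutant skin sample (-4.35 against -4.33). For marco minus cpa5 it lies among the skin samples, at -3.07.

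The 6 genes whose levels were most like each member over the 15 arrays are given as a description. For marco they were zgc:64051 (Pearson r = 0.967), lcp2a (0.952), nrros (0.947), c1qc (0.946), tnfaip8l2a (0.944) and dennd2b (0.942). For c1qc they were zgc:64051 (0.962), lcp1 (0.960), pdlim5b (0.957), laptm5 (0.955), tnfaip8l2a (0.954) and ctss2.2 (0.953). Among 8792 other genes, c1qc ranked 4 for marco and marco ranked 7 for c1qc. Measured against the 18 pan-leukocyte genes, the median r was 0.835 for marco and 0.861 for c1qc, with 10 genes above 0.8 in each case.

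For lyz the most alike genes were myof (0.943), dhrs13a.2 (0.943), pvalb2 (0.940), zgc:66479 (0.940), oclnb (0.937) and gipc2 (0.936). The gene pvalb2 encodes a parvalbumin of fast skeletal muscle and myof a membrane repair protein of the dysferlin family, and pvalb2 was at the floor of the table in melanomas 1 to 5. The median r of lyz with the 13 other neutrophil genes was 0.022, with a range of -0.45 to 0.61, and with the pan-leukocyte genes -0.20, all pooled over the 3 groups, whose own values for the neutrophil list are given above.

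For cpa5 they were tspan34b (0.897), prss1 (0.882), si:ch211-240l19.8 (0.873), acta2 (0.871), cxcl12a (0.869) and ptgs1 (0.867). Of these, acta2 is the smooth muscle actin and cxcl12a a chemokine of stromal cells. Pooled over the 3 groups, the r of cpa5 with the 3 other mast cell genes ran from -0.51 to 0.37. Its pooled median with the 17 pancreas genes was 0.811, with 9 above 0.8. Within mutant skin r was 0.731 for gata2a, 0.756 for srgn and 0.285 for kita, and in the 6 melanomas 0.391, -0.28 and -0.77. For the mast cell list without cpa5, r was 0.672 in mutant skin, -0.35 in the 6 melanomas and 0.63 in melanomas 1 to 5. For the pancreas list it was 0.978, 0.197 and -0.155 in the same sets. Between the members, r over the 15 arrays was 0.946 for marco and c1qc, 0.777 for lyz and cpa5, -0.52 for marco and lyz and -0.09 for marco and cpa5. These values describe arrays that share tissue, oocyte and pancreas differences, and carry no test.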

How the data were processed

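Total RNA extracted with Trizol from 6 melanomas, 6 mutant skin and 3 wild-type skin samples was hybridised to 15 arrays, per the labels. The deposited log2 values were made by the authors; the submitters' processing notes name GCRMA, a background correction and summary of probe sets, without a version. The log2 reference of each probe set is not stated, array medians ran from -0.56 to 0.098, and 89 deposited log2 values sit at a floor of -6.64, none of them of a member. Scanner files were not used here, so no probe could be called against background; the number of arrays limits the precision.

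After removal of 115 control probe sets, 15502 remained. Of these 10795 had 1 gene symbol, 135 had several and 4572 had none; gene identifiers of 10711 were found in RefSeq, and 1 symbol was updated. Probe sets of 1 gene were averaged, which gave 8793 genes. One model with 3 groups was fitted over all arrays in limma 3.58.1 under R 4.3.3 with lmFit and eBayes and 12 residual degrees of freedom, two-sided, with Benjamini-Hochberg adjustment over all genes and a threshold of 0.05. Over all genes the median standard error was 0.399 between melanoma and mutant skin and 0.488 against wild-type skin. The code was tested on simulated data. Differences between members were tested by exact permutation in scipy 1.17.1.

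The members and lists were chosen with earlier results of these data known. Named were the members, 11 marker genes where measured, up to 4 further genes per list and comparison by size among those past the threshold, and the 6 genes most correlated with each member. The gene mitfa was named for the check of the labels and srgn after its values were seen. Alternatives changed the scaling, gene summary, moderation, weights, arrays used, covariate and replicate block. Promoter motifs were not analysed here.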

Additional observations from a re-analysis of the deposited data

Results flagged for a closer look

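In melanoma, lyz was 1.67 in sample 6, and the gap to the nearest other melanoma was a share of 0.674 of the group's range, above the critical value of Dixon's test for 6 samples. The other melanomas were between -3.60 and -1.88. Among the 8 sets of 6 arrays examined for the 4 genes this was the only such sample. Chance gives about 1 in 20 for each set, so a flag somewhere among the 8 sets is less rare than that. Melanoma 6 was also the highest melanoma for the oocyte list, at 4.45, and for the skeletal muscle list, at 0.50, and their part in its lyz value was not tested.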

How the results depend on the processing

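The direction and call of lyz between melanoma and mutant skin held in all settings but 1, the fit without the arrays with pancreas transcripts (-3.00), a setting chosen after seeing the data. That fit also lost cpa5 (-1.71), as did its version without melanoma 6 (-2.02) and the fit of the arrays of 2 groups alone (-2.85, adjusted p = 0.0552), which also lost lyz against wild-type skin (-3.28, adjusted p = 0.0703). Array weights turned c1qc between melanoma and mutant skin (-0.061) and brought calls for c1qc against wild-type skin in melanoma (2.53) and mutant skin (2.6) and for marco in mutant skin (2.33). Leaving out the arrays with ovary transcripts turned c1qc between melanoma and mutant skin (-0.16), brought a call for cpa5 between melanoma and wild-type skin (-3.25) and turned lyz (-0.96) and cpa5 (-0.55) between the skins. The oocyte covariate turned marco (-0.087) and c1qc (-1.02) between melanoma and mutant skin and lost lyz against wild-type skin (-2.63). Without the pancreas arrays, with or without melanoma 6, lyz (-0.28) and cpa5 (-0.049) turned between the skins, and without both c1qc passed between melanoma and wild-type skin (3.09). The cause of these changes was not tested.

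Genes called between melanoma and mutant skin numbered 1147, and 2864 with array weights, 1975 without the ovary arrays, 1997 with the covariate and 297 without the pancreas arrays. Against wild-type skin melanoma had 1479, with 3882 under weights and 2755 under the covariate. Between the skins the count of 12 became 286 with weights, 7 with 2 groups alone, 27 without the ovary arrays and 56 with the covariate.

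Leaving out 1 array gave 700 to 1962, 568 to 2016 and 7 to 21 genes in the 3 comparisons. Over the same fits, c1qc ran from -0.20 to 0.77 between melanoma and mutant skin and from 1.93 to 3.09 between melanoma and wild-type skin. The lowest and highest changes of cpa5 between melanoma and mutant skin were -3.30 and -2.20. Between melanoma and wild-type skin lyz ran from -4.08 to -2.85 and marco from 2.47 to 3.53, and between the skins lyz ran from -0.27 to 0.56.

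Melanoma and mutant skin share sample numbers. Their same-numbered deviations correlated at 0.069, -0.05, 0.437, 0.206, 0.376 and 0.673, and 3 of 6 melanomas and 2 of 6 mutant skin samples correlated best with their own number. These values do not settle whether a shared number marks the same fish. The labels do not say that it does, so the numbers were not taken as pairs. With the number as a replicate block, c1qc between melanoma and wild-type skin was 2.91 (adjusted p = 0.0305), lyz between the skins was -0.51, and genes called were 1489, 1709 and 8. No other member's call changed under the block. Signal over background was not available from log2 values, so low levels have no detection limit here.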
